A study of Mus musculus with 24 samples.

Results

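The Hox genes were measured on 24 single-colour arrays, which held RNA of the brain or the liver of newborn female mice. The members were all probes other than controls whose gene name in the scanner files was Hoxa, Hoxb, Hoxc or Hoxd followed by a number. This gave 50 probes for 38 genes, out of 41174 probes and 27845 gene names on the array. Cluster A had 11 of the genes, cluster B 10, cluster C 8 and cluster D 9. The probes lay on the chromosomes of the 4 clusters in mouse build mm8, with 14 on chromosome 6 (cluster A), 15 on chromosome 11 (cluster B), 9 on chromosome 15 (cluster C) and 12 on chromosome 2 (cluster D).

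Each tissue had 3 groups of 4 arrays. NC were controls produced by ICSI, the injection of a sperm into an oocyte. CC were somatic cell clones made from cumulus cells, which surround the oocyte. G20 were cumulus-cell-derived clones of generation 20 of serial cloning. All 3 groups came from the cross of C57BL/6 x DBA2 with 129/Sv. The series asks whether reprogramming errors build up over serial recloning. The NC and CC labels tied the brain and the liver of 1 animal together, while all G20 samples carried the same source name in both tissues, so whether the 4 G20 arrays of a tissue came from separate animals is not stated. If they did not, their p-values measure only a technical spread. The labels say neither which brain regions a sample held nor how the brain was cut.

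Hox genes encode homeodomain transcription factors and stand in clusters whose order along the chromosome matches the order of their expression along the body. In the central nervous system they are off in forebrain and midbrain, start in the hindbrain with the genes of low paralog number and reach into the spinal cord with the genes of higher number. Retinoic acid and Cdx factors switch them on, Polycomb proteins keep them silent in front of their domains, and Pbx and Meis proteins bind DNA with them. In liver some Hox genes are known from mesenchymal and blood-forming cells.

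Values are log2 of the scanner's processed signal minus the 75th percentile of that array, so that 0 is the level of a fairly bright spot. A probe was counted as measured where the scanner software flagged it as well above background. Below that, a value is a bound and not a level. The 75th percentile itself was 402 to 465 on CC brain arrays, 814 to 935 on NC brain arrays and 724 to 864 on G20 brain arrays. Hox probes without the flag therefore had medians of -6.43 to -6.22 on CC brain arrays and -7.44 to -7.12 on the other brain arrays, and a difference of about that size between unflagged probes is no difference in level. Each group of each tissue had a slide of its own, and the 2 cannot be told apart. Both CC groups were scanned in a session of their own, so for every comparison with CC the group and the scan session cannot be told apart either. Of NC and G20, the liver arrays were scanned in the first session and the brain arrays 49 days later. Between the tissues of NC and of G20, tissue and scan session thus cannot be told apart. The arrays matched their tissue labels: the summed level of 13 pan-neuronal markers was 151 to 186 in brain and 0.479 to 2.68 in liver, and that of 12 hepatocyte markers was 947 to 3183 in liver and 0.803 to 4.71 in brain.

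Few Hox genes were measured on most brain arrays. On the 4 NC brain arrays 4, 7, 4 and 4 of the 38 genes were well above background. On the CC brain arrays the counts were 17, 18, 3 and 15, and on the G20 brain arrays 4, 17, 8 and 7. Arrays 1, 2 and 4 of CC and array 2 of G20 thus stood together, far from CC array 3 and the other G20 arrays. On liver arrays the counts were 9 to 13 in NC, 7 to 10 in CC and 12 to 15 in G20. Altogether 20 genes were measured on at least 1 brain array, 20 on at least 1 liver array and 23 on any array, while 15 genes were measured on none. Of the 15 genes with paralog number 9 to 13, 4 were measured on any array, and no gene of paralog groups 11 or 13 was.

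**Figure D1:**
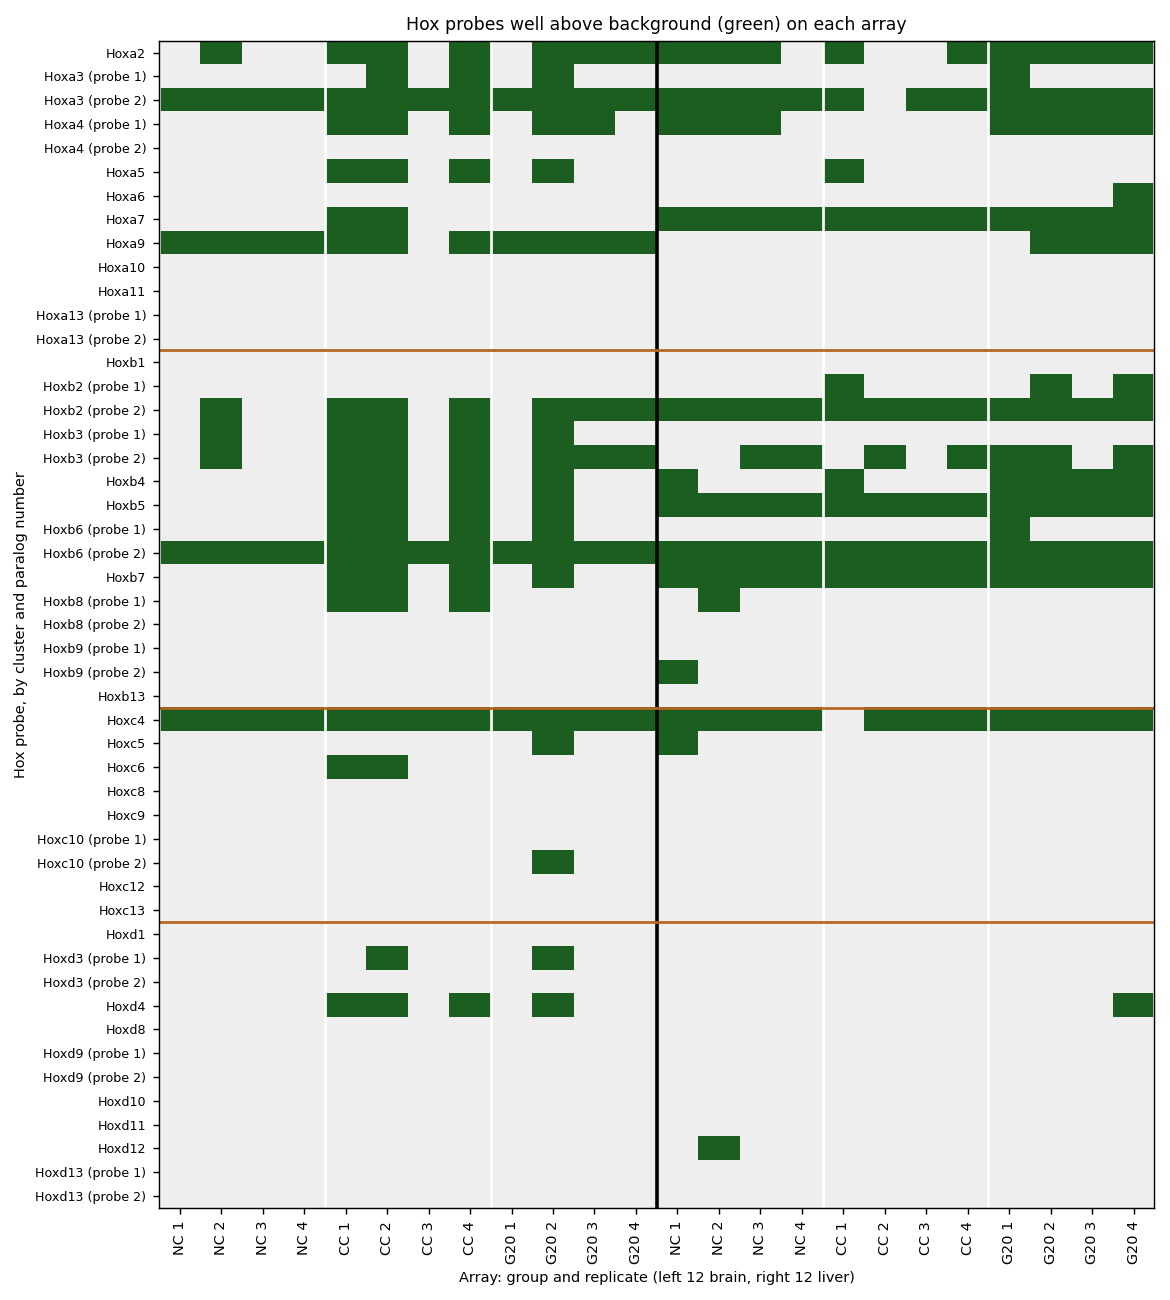
49 of the 50 Hox probes (rows, by cluster and paralog number) on each of the 24 arrays (columns, 12 brain arrays on the left and 12 liver arrays on the right); green marks a probe well above background, grey one that was not, and brown lines separate the clusters. CC brain arrays 1, 2 and 4 and G20 brain array 2 have green in many rows of clusters A and B, and CC brain array 3 has it in 3 rows.

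Of the anterior members, paralog groups 2 and 3, Hoxa2, Hoxb2, Hoxa3 and Hoxb3 had measured values in all 3 brain groups. Hoxd3 was measured on no NC brain array. Hoxa2 (probe at chr6:52092179-52092238), which patterns the second rhombomere of the hindbrain, was at -7.19, -5.15, -7.36 and -7.81 on NC arrays 1 to 4. On CC arrays 1 to 4 it was at -2.70, -2.82, -5.90 and -2.94, and on G20 arrays 1 to 4 at -8.07, -2.20, -4.30 and -5.53. Its highest values were those of G20 array 2 and CC arrays 1, 2 and 4, CC array 3 was below NC array 2, and the groups overlapped. Hoxb2 (its second probe, chr11:96169898-96169957), which acts in the hindbrain and in facial motor neurons, was at -7.42, -4.69, -7.36 and -6.98 in NC. It was at -0.23, -0.84, -6.27 and -0.89 in CC and at -7.31, -1.47, -4.00 and -5.49 in G20. NC array 2, at -4.69, stood more than 2 log2 units above the other NC arrays. The second Hoxb3 probe was high on the same arrays, with -7.64, -4.80, -7.87 and -7.61 in NC, -1.53, -1.15, -6.94 and -1.28 in CC and -7.74, -1.67, -4.21 and -5.29 in G20. The first Hoxb2 probe was not well above background on any brain array, so the Hoxb2 pattern rests on the second probe alone.

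The genes of paralog groups 4 and 5, whose domains begin in the caudal hindbrain and the upper spinal cord, were below background on all NC brain arrays for Hoxa4 (first probe), Hoxb4, Hoxd4, Hoxa5 and Hoxb5. Hoxb5 (chr11:96121906-96121965), a gene of the neural tube and of enteric neuron precursors, was at -6.42, -6.52, -7.23 and -7.17 in NC, at 0.68, 0.83, -6.28 and 0.54 in CC and at -7.66, -0.09, -6.64 and -7.10 in G20. In scanner units that is 643, 778 and 676 on CC arrays 1, 2 and 4 and 679 on G20 array 2, against 5.37 on CC array 3 and 5.66 to 10.7 in NC. Hoxa5 (chr6:52131633-52131692), a gene of the cervical cord and of respiratory neurons, was at -7.50, -7.75, -7.11 and -7.35 in NC. It was at -1.44, -1.22, -6.56 and -1.68 in CC and at -7.78, -1.69, -7.51 and -7.08 in G20. Hoxd4 (chr2:74529648-74529707) was at -7.29, -6.82, -7.46 and -6.97 in NC, at -1.93, -1.75, -6.69 and -2.19 in CC and at -7.71, -2.48, -6.69 and -7.46 in G20. For these 3 genes the measured arrays were the same 4, and the CC and G20 ranges each reached down to background. The second Hoxa4 probe was not well above background on any array of either tissue. The first Hoxa4 probe was also measured on G20 array 3, at -5.44, beside -1.60 on G20 array 2 and -2.50, -2.17 and -2.25 on CC arrays 1, 2 and 4. Hoxb4, a gene of the caudal hindbrain and of blood stem cells, was at -4.31, -4.20 and -4.79 on those CC arrays and -4.72 on G20 array 2.

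For Hoxb6 (first probe), Hoxb7 and Hoxb8, G20 array 2 was below the 3 CC arrays that stood high. Hoxb6 (first probe, chr11:96117339-96117398) was at -0.45, -0.10 and -0.94 on CC arrays 1, 2 and 4 and at -3.08 on G20 array 2, while its NC values were -7.94 to -7.55. Hoxb7 (chr11:96105987-96106046) was at -0.70, -0.37 and -1.57 on those CC arrays and at -4.59 on G20 array 2, with NC at -8.11 to -7.34. Hoxb8 (first probe, chr11:96101232-96101291), a gene of the trunk and spinal cord, was at -3.06, -2.20 and -3.92 on CC arrays 1, 2 and 4, and was not well above background on G20 array 2, at -7.76. On the other arrays Hoxb8 was at -7.83 to -7.37 in NC, -6.68 on CC array 3 and -7.42 to -7.27 in G20. The 3 CC arrays had the same order at Hoxb5, Hoxb6, Hoxb7 and Hoxb8, with array 2 highest and array 4 lowest. Hoxa7 was measured on CC arrays 1 and 2 only, at -4.75 and -4.13, and Hoxc6 on the same pair. Of the genes with higher numbers, Hoxa9 is described below and Hoxc10 was measured on G20 array 2 only. The second probe of Hoxb8, Hoxa6 and the other genes of paralog groups 8 and 9 were not well above background on any brain array.

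**Figure D2:**
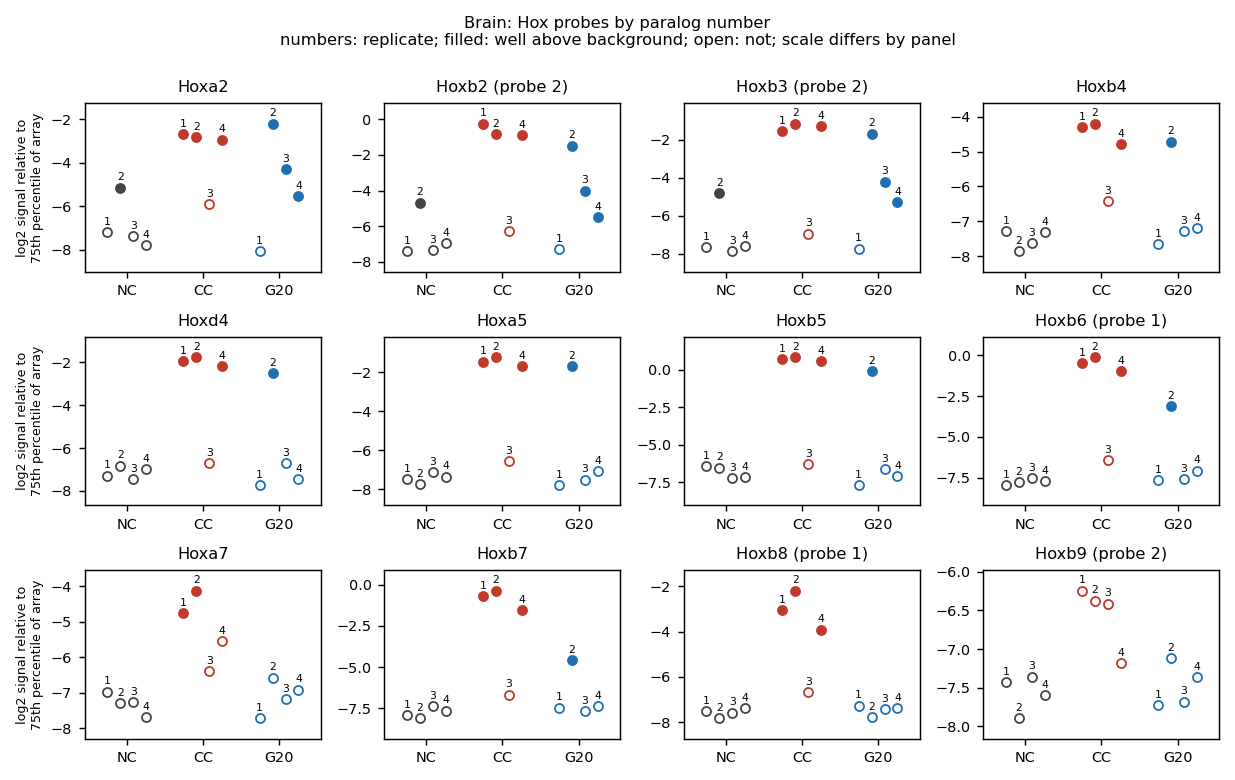
Log2 level relative to the 75th percentile of the array, for 12 Hox probes in the order of paralog number, 1 panel each with a scale of its own, on the 12 brain arrays; filled points are well above background, open points are not, the colours are the 3 groups and the numbers the arrays. Hoxb9 has no filled point. CC arrays 1, 2 and 4 and G20 array 2 lie high for Hoxb5, at 0.68, 0.83, 0.54 and -0.09, and for Hoxb8 only the 3 CC arrays do.

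The sequence in front of the start site is shown for Hoxa2, Hoxd4, Hoxa5 and Hoxb8, the 4 genes that span the order from hindbrain to trunk in the values above. Each line is the 250 bases before the start on the gene's own strand, from RefSeq on build GRCm38.p6, which is a later build than that of the probes. Capitals mark matches on either strand to TGATNNAT, the core bound by Pbx together with Hox proteins, to TAATTA, a homeodomain core, or to TATAAA, the TATA box. The windows were chr6:52164832-52165081 (minus strand) for Hoxa2, chr2:74721728-74721977 (plus) for Hoxd4, chr6:52204588-52204837 (minus) for Hoxa5 and chr11:96281655-96281904 (plus) for Hoxb8.
Hoxa2 promoter: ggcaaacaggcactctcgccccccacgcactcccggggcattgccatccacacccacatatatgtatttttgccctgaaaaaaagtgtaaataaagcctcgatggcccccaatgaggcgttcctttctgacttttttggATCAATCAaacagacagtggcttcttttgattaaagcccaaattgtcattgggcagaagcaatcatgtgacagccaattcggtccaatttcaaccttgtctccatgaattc
Hoxd4 promoter: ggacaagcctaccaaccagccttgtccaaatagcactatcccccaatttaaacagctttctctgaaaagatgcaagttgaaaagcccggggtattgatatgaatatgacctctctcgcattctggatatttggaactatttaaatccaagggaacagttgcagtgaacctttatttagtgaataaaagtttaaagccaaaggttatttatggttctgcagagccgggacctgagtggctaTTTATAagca
Hoxa5 promoter: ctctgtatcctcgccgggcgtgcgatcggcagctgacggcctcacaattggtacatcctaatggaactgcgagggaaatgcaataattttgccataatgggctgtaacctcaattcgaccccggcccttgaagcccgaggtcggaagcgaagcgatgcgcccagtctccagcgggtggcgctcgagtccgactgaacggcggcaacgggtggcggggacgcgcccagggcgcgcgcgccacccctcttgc
Hoxb8 promoter: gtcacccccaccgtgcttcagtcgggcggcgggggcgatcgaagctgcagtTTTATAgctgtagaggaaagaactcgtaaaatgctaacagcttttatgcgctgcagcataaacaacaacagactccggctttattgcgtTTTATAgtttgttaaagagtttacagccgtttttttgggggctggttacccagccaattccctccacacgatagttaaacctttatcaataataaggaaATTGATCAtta
Hoxa2 had 1 match to TGATNNAT, Hoxd4 had 1 to TATAAA, Hoxb8 had 1 to TGATNNAT and 2 to TATAAA, and Hoxa5 had none of the 3. TGATNNAT stood in 7.68% of all 32851 promoter windows of this length, TAATTA in 4.84% and TATAAA in 12.4%, and among the 24 windows of 22 Hox genes the counts were 4, 2 and 4. The windows differed widely in CG pairs, with 3 in Hoxd4, 6 in Hoxa2, 12 in Hoxb8 and 28 in Hoxa5. The median was 12.5 over the Hox windows and 6 over all windows.

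The test of CC against NC in brain depended on 1 array. Genes were tested with limma over all genes of the tissue, on the 12 arrays, if a probe had the flag for signal above background on the whole of 1 group or more. CC array 3 kept most of the genes above out of that test, and only 4 Hox genes (Hoxa3, Hoxa9, Hoxb6 and Hoxc4) entered it. Of these, 3 passed an adjusted p of 0.05, where 69.3% of all genes tested did. Without CC array 3, 15 Hox genes were tested and 14 passed, 13 higher and 1 lower in CC, where 67.6% of all genes did and 40.4% were higher. With no filter on dim probes 37 Hox genes passed, against 72.6% of all genes, and with each probe taken alone 49 Hox probes passed, against 71.3% of all probes, so these counts say little about the members. The genes added without CC array 3 entered only because they were high on the 3 CC arrays left, so neither this count nor the size of their differences is used here, also since their NC values were mostly background.

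A fit that kept all 12 arrays and all genes, with dim values set to a common floor, was also run. Here 8 Hox genes passed between CC and NC, where 44.4% of all genes did. Hoxb7 was 3.79 higher (limma, adjusted p = 0.015), Hoxd4 2.98 higher (limma, adjusted p = 0.0433) and Hoxb8 2.15 higher in CC (limma, adjusted p = 0.0196), and Hoxb5 was 4.96 higher with an adjusted p of 0.0443 in limma. The floor was -5.93, and all NC values of these genes lay below it. They thus became equal, with no spread left in NC. The fit pools this with the spread of CC, so these p-values do not measure the spread between NC arrays. Set against the dimmest measurable level of the NC arrays, the mean over all 4 CC arrays was 52.8-fold higher for Hoxb5 and 32.4-fold for the first Hoxb6 probe. It was 25.3-fold higher for Hoxb7, 18.9-fold for Hoxa5, 13.7-fold for Hoxd4 and 8.14-fold for Hoxb8. Each of these folds rests on 3 measured CC arrays of 4. Array 3 entered at its value though not well above background. Its level can lie lower, so the folds are no strict lower bounds. They were computed for probes measured in CC and not in NC, so their size is no support for a difference.

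Between G20 and NC no Hox gene passed in brain. Of the 4 tested, 0 were called where 1.77% of all genes were, and 1 had an unadjusted p under 0.05 (Hoxa3, 0.24 ± 0.083 SE log2 units, limma, adjusted p = 0.155). The count was also 0 with dim values at a common floor, where 0.614% of all genes passed, and without CC array 3, where 1.37% did. Hoxb5 was measured on 1 G20 array and Hoxa4 (first probe) on 2, so no bound over the group is given.

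Between G20 and CC, 2 of 4 Hox genes passed where 67.6% of all genes did, and both (Hoxb6 and Hoxc4) are described with the flat probes below. Without CC array 3 the count was 11 of 15, against 65.8% of all genes, again with genes that entered through the 3 CC arrays. With all arrays and a common floor Hoxb8 was 2.15 lower in G20 (limma, adjusted p = 0.0203). All G20 values of Hoxb8 lay below that floor, so this p-value does not measure their spread either. The mean over all CC arrays was 7.10-fold above the dimmest measurable level of G20. CC array 3 entered it at its unmeasured value, so this is no strict lower bound. The comparisons share their groups, so they are not independent of each other.

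The same 4 arrays recurred beyond the Hox genes. Probes of Hoxa5, Hoxb4, Hoxb5, Hoxb6 (first probe), Hoxb7 and Hoxd4 were among those well above background on CC arrays 1, 2 and 4 and G20 array 2 and on no other brain array. This set of arrays was taken from the flags of the Hoxb5 probe, so the counts that follow are no independent support for it. Of all 41174 probes, 12 had exactly these flags, 7 of them Hox probes, with Hoxb5 itself included. The 5 others were Nkx6-3, a homeobox gene of the caudal hindbrain, Uts2d (current symbol Uts2b), Pap (Reg3b), 1700006H03Rik and 5730446D14Rik. Of the 346 probes measured on exactly 4 brain arrays, the flags fell into 119 different sets of arrays, and this set was the fifth most frequent (rank 5).

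Some markers of hindbrain and motor neurons were high on the same arrays as the Hox genes, and others were not. Slc6a5, the glycine transporter of inhibitory neurons in hindbrain and spinal cord, was at -6.56, -4.05, -7.19 and -5.27 in NC, at -1.70, -1.43, -6.50 and -1.63 in CC and at -6.60, -0.92, -3.43 and -4.66 in G20. It was thus highest on the same 4 arrays and low on CC array 3. Tph2, the serotonin-making enzyme of the raphe nuclei in the brainstem, was at -6.28 on CC array 3 and between -3.97 and -1.62 on the other 11 arrays, among them all NC arrays, where most Hox genes were at background. Slc6a2, the noradrenaline transporter of the locus coeruleus, was at -6.49 on CC array 3, at -6.78 and -7.38 on NC arrays 1 and 3 and between -4.50 and -1.92 on the rest. Prph, an intermediate filament of motor and sensory neurons, was at -1.19, -1.15 and -1.68 on CC arrays 1, 2 and 4, at -1.94 on G20 array 2 and between -3.77 and -2.88 elsewhere. Phox2a, a factor of noradrenergic and visceral motor neurons, was highest on the same 4 arrays, at -4.42 to -3.70, and not well above background on CC array 3. En2, a factor of midbrain and cerebellum, was at 0.45 on CC array 3 and at 1.24 to 1.56 on the other CC arrays. En1, the related factor, and Chrna3, a nicotinic receptor subunit of motor and autonomic neurons, were well above background on all NC and G20 arrays and on no CC array. Of the hindbrain and cerebellum markers 15 were tested between CC and NC, with 7 higher, 2 lower (En1 and Zic4) and a median of 0.46, beside 0.13 over all genes and 69.3% of them called. Of the spinal cord and motor neuron markers 6 were tested, with 3 higher, 1 lower (Chrna3) and a median of 0.42. En1 and Chrna3 turned higher with normexp.

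Of the 16 forebrain markers, 15 or 16 were well above background on each brain array, with Otx1 below on 8 of the 12. Between CC and NC 15 of them were tested, with 3 higher, 9 lower and a median of -0.50. The largest drops were those of Tbr1, a factor of cortical projection neurons (-2.15), and Nkx2-1, a factor of the ventral forebrain (-1.45). Lhx2, a factor of the developing cortex, was at 3.21 on G20 array 2 and between 3.98 and 4.43 on all others. The summed level of the 16 forebrain markers, on the linear scale relative to the 75th percentile, was 74.5 to 81.5 in NC, 80.1 to 105.5 in CC and 56.0 to 78.5 in G20, with the highest value on CC array 3 and the lowest on G20 array 2. The sum over 26 hindbrain and cerebellum markers was 23.4 to 28.8 in NC and 30.1 to 35.7 in G20, and 47.4, 45.2, 33.2 and 44.6 on CC arrays 1 to 4. Of those 26 markers, 11 to 20 were well above background on a brain array, and Tlx3, Atoh1, Cbln3, Gabra6 and Chat never were. The sum over 12 spinal cord and motor neuron markers was 1.36 to 1.63 in NC, 1.85 to 2.44 in CC and 1.56 to 2.43 in G20, with CC array 3 lowest in CC and G20 array 2 highest in G20, while 6 to 7 of the 12 were well above background in NC and G20 and 4 to 5 in CC. The defining Mnx1, Lhx3, Lhx4 and Lmx1b were not well above background on any brain array. The part of these markers in the Hox values was not tested. In such bulk samples, fewer cells of a type and less RNA per cell cannot be told apart.

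**Figure D3:**
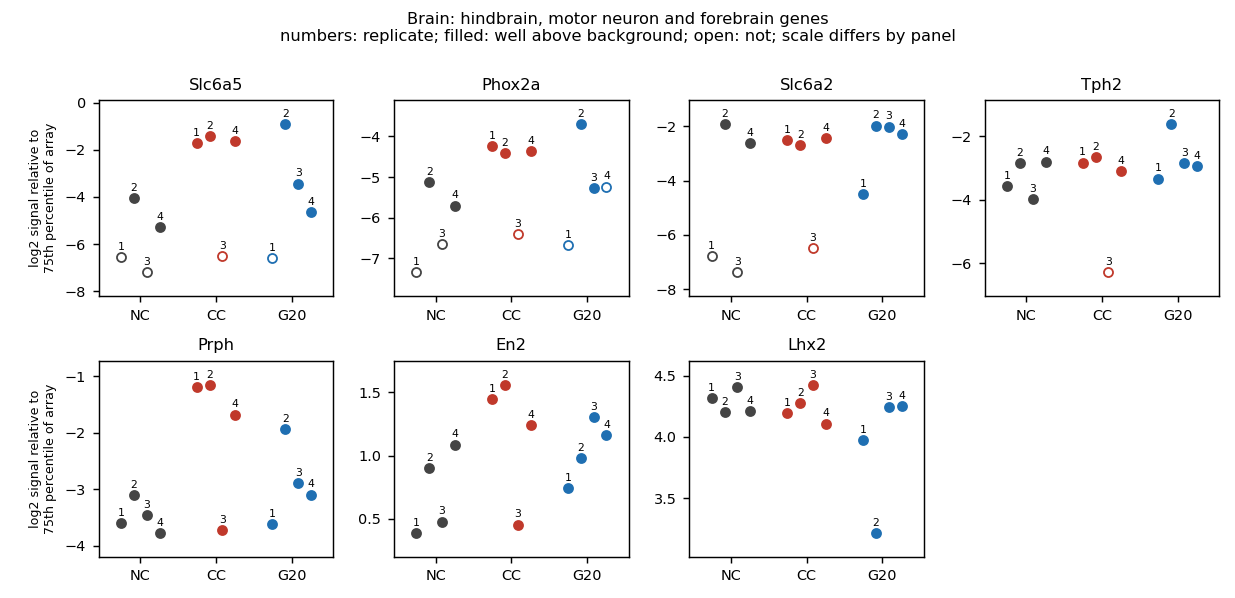
Log2 level relative to the 75th percentile of the array, on the 12 brain arrays, for 7 genes of hindbrain, motor neurons and forebrain, each panel with a scale of its own; filled points are well above background, open points are not, the colours are the 3 groups and the numbers the arrays. Slc6a5 is at -1.70, -1.43 and -1.63 on CC arrays 1, 2 and 4, at -0.92 on G20 array 2 and at -6.50 on CC array 3.

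A few probes did not share this pattern or shared only a part of it, and some of them disagreed with another probe of the same gene. Hoxa3 (second probe, chr6:52099994-52100053) was at -4.96, -4.94, -5.03 and -5.11 in NC, at -4.53, -4.65, -4.63 and -4.51 in CC and at -4.85, -4.54, -4.87 and -4.83 in G20. Its CC values lay above all NC values, and CC array 3 did not stand apart, while G20 array 2 was the highest of G20. The first Hoxa3 probe (chr6:52099328-52099387) was measured only on CC arrays 2 and 4 and G20 array 2. Hoxb6 (second probe, chr11:96115057-96115116) was at -2.67, -2.67, -2.74 and -2.81 in NC, at -3.05, -3.38, -3.18 and -3.01 in CC and at -3.01, -2.64, -2.67 and -2.62 in G20. The CC values and G20 array 1 were the lowest, and CC array 3 was among them with no gap, whereas the first Hoxb6 probe ranged from -7.94 to -0.10 over the same arrays. Which transcripts each of the probes reads was not analysed here. Hoxc4 (chr15:102864144-102864186) was at -5.11, -5.31, -5.41 and -5.28 in NC, at -4.71, -4.89, -4.07 and -4.14 in CC and at -4.93, -5.23, -5.29 and -5.11 in G20, with CC array 3 the highest of all. Hoxa9 was at -4.54, -5.57, -5.68 and -5.59 in NC, at -4.77, -4.92, -5.79 and -4.90 in CC and at -5.53, -4.60, -5.35 and -5.44 in G20, and the groups overlapped. It shared a part of the pattern: CC array 3 was lowest and not well above background, and G20 array 2 was the highest of G20. NC array 1 was the highest of all.

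These are the 4 genes that the main test in brain was run on. Against NC, CC was 0.43 ± 0.083 (SE) higher for Hoxa3 (limma, adjusted p = 0.00063), 0.82 ± 0.17 higher for Hoxc4 (limma, adjusted p = 0.000956) and 0.43 lower for Hoxb6 (log2 difference -0.43 ± 0.10, limma, adjusted p = 0.0026). With the background corrected by normexp, Hoxb6 turned to 0.65 higher in CC and none of the 3 passed. Its normexp values were -2.20, -0.46, -2.21 and -2.25 on CC arrays 1 to 4 and -2.48 to -2.37 in NC, so CC array 2 stood apart. With the values of the deposited matrix Hoxc4 turned to -0.26 and again none passed. Hoxa9 differed by 0.25 ± 0.30 (limma, adjusted p = 0.476). Against CC, G20 was 0.42 higher for Hoxb6 (limma, adjusted p = 0.00334) and lower for Hoxc4 (-0.68, limma, adjusted p = 0.00346), and these directions turned with normexp for Hoxb6 (-0.29) and with the deposited matrix for Hoxc4 (0.35).

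**Figure D4:**
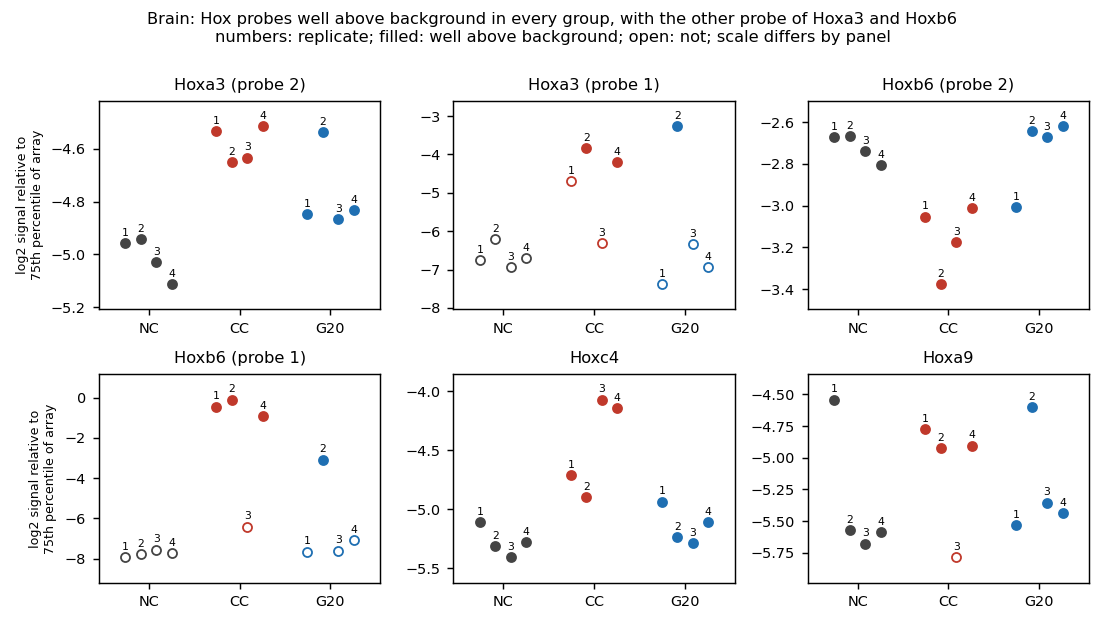
Log2 level relative to the 75th percentile of the array, on the 12 brain arrays, for the 4 Hox probes that entered the main test in brain and for the first probes of Hoxa3 and Hoxb6, each panel with a scale of its own; filled points are well above background, open points are not, the colours are the 3 groups and the numbers the arrays. Hoxb6 (second probe) lies between -3.38 and -2.62 on all 12 arrays.

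In liver 7 to 15 Hox genes were measured on every array. Hoxb6 (second probe) was at -1.42, -1.72, -1.06 and -1.39 in NC, -0.97, -2.04, -2.37 and -2.45 in CC and -1.47, -1.42, -1.52 and -1.71 in G20. CC array 1 was the highest of all 12 arrays and the other CC arrays were the lowest. The first Hoxb6 probe was measured on 1 liver array only, G20 array 1. Hoxb2 (second probe) was at -2.13, -2.27, -2.40 and -1.94 in NC, at -2.13, -1.97, -2.17 and -2.17 in CC and at -2.14, -2.44, -2.57 and -2.64 in G20. Hoxb5 was at -2.61, -2.81, -2.53 and -2.41 in NC, at -2.75, -3.29, -3.44 and -3.13 in CC and at -2.91, -3.00, -2.82 and -2.67 in G20. For both genes the groups overlapped. Hoxa7, which is expressed in blood progenitors, was at -3.98, -3.26, -3.48 and -3.25 in NC, at -3.33, -3.11, -4.10 and -3.37 in CC and at -2.79, -2.90, -2.71 and -3.19 in G20. All G20 values lay above all NC values. Hoxb7 was at -4.29, -4.27, -3.71 and -3.46 in NC, at -3.41, -3.13, -3.90 and -3.51 in CC and at -2.65, -3.48, -3.50 and -3.52 in G20, with G20 array 1 highest.

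Among the members of clusters A and C in liver, Hoxc4 was at -3.23, -3.07, -3.33 and -3.20 in NC, at -4.65, -3.85, -4.10 and -4.01 in CC and at -3.04, -3.21, -2.95 and -2.92 in G20. All its CC values lay below both other groups, and that of CC array 1 was not well above background. Hoxa3 (second probe) was at -3.39, -3.36, -3.54 and -3.32 in NC, at -3.66, -4.48, -3.81 and -4.31 in CC and at -2.97, -3.50, -3.36 and -3.65 in G20, with CC below every other array. The first Hoxa3 probe was measured on 1 liver array only, G20 array 1. Hoxa2 was at -4.43 to -4.15 in NC, -4.82 to -4.32 in CC and -4.34 to -3.84 in G20. Hoxa4 (first probe) ranged from -4.78 to -4.53 in NC, from -5.59 to -4.65 in CC, where no array was well above background, and from -4.77 to -4.32 in G20. Neither gene separated NC from the other groups. Hoxb4 ranged from -5.29 to -4.22 over the 12 arrays. Hoxd12 (-2.73 on NC array 2), Hoxc5 (-2.91 on NC array 1) and Hoxb9 (-4.31 on NC array 1) were each measured high on a single array of NC.

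Of the 11 Hox genes tested in liver, 0 passed between G20 and NC, where 7.31% of all genes did. Of these 11, 2 had an unadjusted p under 0.05, Hoxa7 at 0.59 ± 0.22 (limma, adjusted p = 0.123) and Hoxb7 at 0.64 ± 0.25 (limma, adjusted p = 0.137). The median over the 11 genes was 0.16, beside 0.03 over all genes. With normexp 9 Hox genes passed instead, but that count says little about the members. Under normexp the first Hoxa13 probe, measured on no array, was at -0.70, -2.15, -1.15 and -1.30 in NC. In G20 it was at -3.22, -3.26, -3.01 and -3.49.

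Between CC and NC 3 of the 11 passed, all lower in CC, where 40.7% of all genes passed and 21% were lower. Hoxc4 fell by 0.95 ± 0.15 (limma, adjusted p = 0.000488), Hoxa3 by 0.67 ± 0.19 (limma, adjusted p = 0.0145) and Hoxb5 by 0.56 ± 0.14 (limma, adjusted p = 0.00916). All 3 kept their direction in the alternatives run, but none passed with normexp or with the deposited matrix, and Hoxc4 came down to -0.06. Between G20 and CC 6 passed, where 45% of all genes did, and the 5 higher ones stood beside 24.6% of all genes called higher. Hoxc4 was 1.12 ± 0.15 higher in G20 (limma, adjusted p = 0.000115), and Hoxa3 0.70 ± 0.19 (limma, adjusted p = 0.0102), and both turned lower with normexp. Of the 6, Hoxa2 and Hoxa4 had entered the test only through G20, where they were high, so their calls are no support for a difference. Hoxa7 (0.58, adjusted p = 0.0476 in limma) turned lower with normexp, and Hoxb2 (-0.34, adjusted p = 0.0448 in limma) turned higher with the deposited matrix. Those last calls were lost in 17 and 14 of 22 alternatives.

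Cell type markers of liver also differed between the groups. The summed level of 12 hepatocyte markers was 2611 to 2964 in NC, 947 to 1709 in CC and 2599 to 3183 in G20. That of 14 markers of mesenchyme, fibroblasts and stellate cells was 72.8 to 83.5, 88.7 to 126.8 and 62.9 to 71.3, and that of 20 markers of blood progenitors and myeloid cells was 773 to 865, 549 to 613 and 746 to 810. CC thus stood apart from both other groups in all 3 sums. Their part in the Hox differences was not tested.

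**Figure D5:**
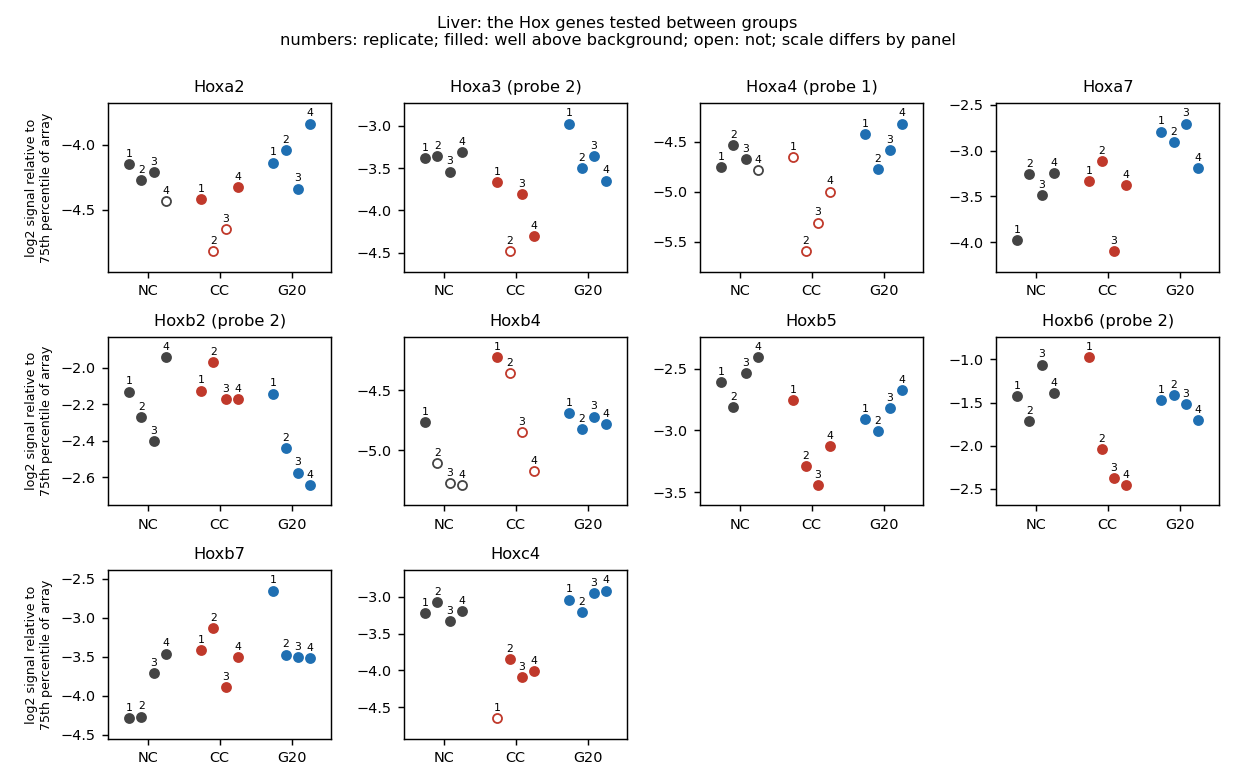
Log2 level relative to the 75th percentile of the array, on the 12 liver arrays, for 10 of the 11 Hox genes tested in liver, each panel with a scale of its own; filled points are well above background, open points are not, the colours are the 3 groups and the numbers the arrays. Hoxc4 lies at -4.65 to -3.85 in CC and at -3.33 to -2.92 in NC and G20.

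Over all groups, 12 Hox genes were tested between brain and liver and 8 passed, all lower in brain, where 93% of all genes passed and 47.3% were lower in brain. In NC and G20 the tissues were scanned in different sessions, which cannot be told apart from the tissue. Hoxa7 was 3.24 log2 units lower in brain, Hoxb2 2.16 lower (limma, adjusted p = 0.00254) and Hoxb7 2.05 lower (limma, adjusted p = 0.000961). For Hoxa7 and Hoxb7 most brain values were not well above background, so their differences are not measured levels on both sides. Hoxb4, Hoxc4, Hoxb6 and Hoxa3 were 1.18 to 1.55 lower. Hoxb4 was measured on 4 of the 12 brain arrays. These differences are relative to the 75th percentile, which was 814 to 935 on NC brain arrays and 276 to 341 on NC liver arrays. In scanner units the second Hoxa3 probe was at 23.5 to 30.4 in NC brain and 27.8 to 30.4 in NC liver, and the second Hoxb6 probe at 116 to 147 and 94.8 to 163, so the unscaled values overlapped. For NC alone the scaled level in liver was at least 18.2-fold above that in brain for Hoxb5, 11.3-fold for Hoxa7 and 8.33-fold for Hoxb7. In CC some probes were higher in brain than in liver. The first Hoxb6 probe was 9.77-fold higher in CC brain than in CC liver, Hoxd4 4.31-fold and Hoxa4 3.27-fold. Each rests on 3 measured brain arrays of 4, with array 3 at its unmeasured value, so these are no strict lower bounds. Only Hoxa4 had the other order in NC, with liver 3.96-fold above brain from 3 measured liver arrays. The first Hoxb6 probe and Hoxd4 were measured on no NC array of either tissue. The second Hoxb6 probe stayed lower in CC brain (-3.38 to -3.01) than in CC liver (-2.45 to -0.97). With dim values at a common floor 8 genes passed (66.2% of all genes), 6 lower in brain and 2 higher (Hoxa5 and Hoxd4, by 1.14 and 0.98). Hoxb4 and Hoxb7 did not pass there, at -0.12 (limma, adjusted p = 0.409) and -0.47 (limma, adjusted p = 0.330).

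The difference between CC and NC differed between tissues for 2 of the 3 Hox genes measured in both, where 54% of all genes passed. It was 1.09 ± 0.21 greater in brain than in liver for Hoxa3 (limma, adjusted p = 0.000166) and 1.77 ± 0.23 for Hoxc4 (limma, adjusted p = 2.4e-06), while neither passed with normexp or the deposited matrix, where Hoxa3 came down to 0.21 in one of them and Hoxc4 turned to -0.20 in the matrix. For G20 against NC 0 of 3 passed, where 3.85% of all genes did, and 0 had an unadjusted p under 0.05. The liver of the CC animal whose brain had 3 Hox genes measured (array 3) had 7, and the livers of the other CC animals had 10, 8 and 9. The labels do not tie G20 livers to brains, and the 4 G20 liver arrays had 12, 13, 12 and 15.

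Genes that act with the Hox genes were read from the same fits. Of the 11 cofactors of the TALE homeobox class, 0 passed between G20 and NC in brain, where 1 had an unadjusted p under 0.05 and the median was -0.05 beside 0.03 over all genes. Of 17 upstream regulators, 1 was called (Rarg, a retinoic acid receptor, 0.87 ± 0.15 higher in G20, limma, adjusted p = 0.0133), and that call was lost with normexp and with the mean of its probes. None of the 29 Polycomb genes, which silence Hox genes, or the 17 Trithorax genes, which keep them active, passed in limma (unadjusted p under 0.05 in 3 and 1 of them). Between CC and NC in brain 8 of 11 cofactors passed (4 higher, 4 lower), 9 of 17 upstream regulators (7 higher, 2 lower), 22 of 29 Polycomb genes (9 higher, 13 lower) and 14 of 17 Trithorax genes (6 higher, 8 lower), where 69.3% of all genes passed. The list medians were 0.11, 0.28, -0.06 and -0.16 in that order, beside 0.13 over all genes. In liver, Meis1 (0.57 ± 0.13, limma, adjusted p = 0.0228) was the only 1 of 9 cofactors to pass between G20 and NC, and its direction turned with normexp. Between CC and NC in liver Pknox2, a cofactor, fell by 0.74 and Rarg by 2.03, with 5 of 9 cofactors (2 higher, 3 lower) and 5 of 12 upstream regulators (1 higher, 4 lower) called, where 40.7% of all genes were, and list medians of -0.15 and -0.0047 beside 0.02 over all genes.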

How the data were processed

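The deposited scanner files hold intensity for each spot as Agilent Feature Extraction 9.5.3.1 wrote it, with background taken off and no normalization between arrays, per the file headers. The same files flag spots as outliers or as well above background, with values of another kind (0 or 1). Per the labels' protocols, RNA was extracted with Trizol, cleaned on columns and labelled with Cy3. The deposited matrix holds linear intensity values. Its CC columns carry a further factor for each probe, with an SD of the log2 ratio to the scanner values of 0.627 to 0.657, against 0.0103 to 0.0554 in NC and G20. The medians of its columns lay at 354 to 393 for brain of NC and G20, 463 to 489 for brain of CC, 224 to 283 for liver of NC and G20 and 300 to 341 for liver of CC. The source of that factor and the centring stay unknown, so it was used only as an alternative. No column was unused (0).

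From these values, outlier spots were removed, replicate spots averaged, and the 75th percentile of each array taken off log2 processed signal. Of the 50 Hox probes 46 matched a current symbol of the same name by accession in a RefSeq table and 4 kept the name in the file. A gene with several probes was represented in the tests by its brightest kept probe (18299 genes in brain, 16365 in liver, 19880 between the tissues). Kept means that all 4 arrays of some group had the probe well above background. The tests used limma 3.58.1 and data.table, at version 1.17.8, under R 4.3.3, and Benjamini-Hochberg adjustment over all genes tested, at a threshold of 0.05. Errors are standard errors of the model, and the script was tested on simulated data. A gene below background in a whole group is given as a fold, against the mean over that group's arrays of the lowest signal well above background or of the probe's own signal where that is higher. The fold is given as "at least" only where the gene was measured on all arrays of the brighter group. The number of arrays limits the precision.

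Members called in a comparison, the 8 with the highest means of a tissue and those measured in some groups only are given with their values. Of the other lists, called genes are named, and a few genes are not reported here. The members and lists were chosen with earlier results of these data known. Same-numbered arrays of different groups did not deviate together (correlations of -0.257 to 0.160). Brain and liver of the same number correlated at 0.0419 to 0.300. Alternatives were the background correction, the scaling, the filter, the choice of probe, the matrix, the groups fitted, the replicate block and leaving out each array, and 2 further ones (a common floor, and each probe on its own) were chosen after seeing the data.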

Additional observations from a re-analysis of the deposited data

Results flagged for a closer look

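Of 96 groups of 4 arrays checked for a single array far from the others, 24 were picked out. Only groups in which a probe was well above background on at least 1 array were checked. A probe measured on 1 array of 4 then tends to be picked. The 5% that chance gives without such a selection is therefore no measure for this count. In brain, 10 of them were the lowest value of CC array 3: Hoxa2 at -5.90, Hoxa4 (first probe) at -6.59, Hoxa5 at -6.56, Hoxa9 at -5.79, Hoxb2 (second probe) at -6.27, Hoxb3 at -7.34 (first probe) and -6.94 (second probe), Hoxb5 at -6.28, Hoxb6 (first probe) at -6.40 and Hoxd4 at -6.69. A further 7 were the highest value of G20 array 2 in brain: Hoxa3 (second probe) at -4.54, Hoxa5 at -1.69, Hoxb4 at -4.72, Hoxb5 at -0.0917, Hoxb6 (first probe) at -3.08, Hoxb7 at -4.59 and Hoxd3 (first probe) at -4.48. G20 array 1 had the lowest value of the second Hoxb6 probe, at -3.01. In NC brain, Hoxa9 was highest on array 1 at -4.54, and Hoxb2 and Hoxb3 (second probes) were highest on array 2 at -4.69 and -4.80. In liver, Hoxb9 (second probe) was highest on NC array 1 at -4.31, Hoxd12 on NC array 2 at -2.73 and Hoxb7 on G20 array 1 at -2.65. The members of a cluster on 1 array share the RNA of that sample, so these picks are not independent of each other. Over all probes, the share well above background was 62.4% to 63.9% on the 4 CC brain arrays.

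The difference between CC and NC itself differed between brain and liver by 1.09 for Hoxa3 and by 1.77 for Hoxc4 on the scaled log2 values. This was a test of the difference of differences over 24 arrays, with the limits given above.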

How the results depend on the processing

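The counts of Hox genes past the threshold moved by more than 1.5 times in these cases. For CC against NC in brain (3 in the main test) the count was 0 with the deposited matrix, 0 with normexp, 37 with no filter on dim probes (where 72.6% of all genes passed), 8 with a common floor (44.4%) and 49 probes with each probe on its own (71.3% of all probes). For G20 against CC in brain (2) it was 0 with the matrix, 0 with normexp, 26 with no filter (70.7% of all genes), 4 with a common floor (43%) and 36 with each probe on its own (69.5%). For CC against NC in liver (3) it was 1 with the matrix, 11 with no filter (36.1%), 0 with normexp and 1 for probes measured on all arrays, and for G20 against CC in liver (6) it was 1, 23 (52.4%), 0 and 2. For G20 against NC in liver (0) it was 1 with no filter (4.38%) and 9 with normexp, under which an unmeasured probe also separated these groups. Between the tissues (8) it was 4 with the matrix, 29 with no filter (92.6%) and 1 for probes measured on all arrays. For the CC difference between tissues (2) it was 0 with the matrix, 17 with no filter (42%), 9 with a common floor (34.3%), 0 with normexp and 0 for probes measured on all arrays, and for the G20 difference (0) it was 2 with no filter (3.48%). Unfiltered counts of CC are set against a background that lies higher on CC arrays.

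Leaving out each array in turn gave 0 to 0 for G20 against NC in both tissues and for its difference between tissues, 3 to 14 for CC against NC and 2 to 11 for G20 against CC in brain, 3 to 5 and 4 to 6 for the same in liver, 8 to 10 between tissues and 2 to 9 for the CC difference. The highest counts came without CC array 3 of brain, and without G20 array 1 of brain the count for CC against NC was 6 of 7. With the replicate block the counts were 0, 3 and 2 in brain, 0, 4 and 4 in liver, 8 between tissues, and 0 and 2 for the differences; the numbers did not pair the arrays between groups.

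Directions reversed with normexp for Hoxa2 (-0.85), Hoxa3 (-0.76), Hoxa4 (-0.99), Hoxa7 (-0.75) and Hoxc4 (-0.51) in liver G20 against CC, and for Hoxb6 in brain, at 0.65 for CC against NC and -0.29 for G20 against CC. With the matrix they reversed for Hoxb2 (0.28) in liver G20 against CC, and for Hoxc4 at -0.26 for CC against NC in brain, 0.35 for G20 against CC in brain and -0.20 for the CC difference between tissues. Under normexp the background lay unevenly between arrays. The first Hoxa13 probe, measured on no array, was then at -2.89, -0.51, -3.02 and -3.15 on CC brain arrays 1 to 4. It was at -4.02, -3.81, -3.96 and -1.17 on G20 brain arrays and at -2.48, -2.22, -2.51 and -0.26 on CC liver arrays. The part of this in the normexp reversals was not tested, nor was the cause of those with the matrix. The median of all genes moved to 0.39 with normexp and to -0.16 with the matrix for CC against NC in brain. Signal over background limits what can be said of most posterior members, which were measured on no array.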

Other observations

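Genes flanking the Hox clusters and paralogous homeobox genes of other families formed a further list of 28. Of its 21 members tested in brain, 0 passed between G20 and NC in limma (4 had an unadjusted p under 0.05; median 0.03, beside 0.03 over all genes), and 11 were higher and 5 lower between CC and NC (median 0.44, beside 0.13), where 69.3% of all genes passed and 41.5% were higher. In liver 17 were tested, of which 1 was higher between G20 and NC and 4 were higher and 2 lower between CC and NC, where 7.31% and 40.7% of all genes passed.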
